A study of Mus musculus with 12 samples.

Results

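The 8 genes described here write, copy or remove cytosine methylation in mouse DNA: Dnmt1, Uhrf1, Dnmt3a, Dnmt3b, Dnmt3l, Tet1, Tet2 and Tet3. They were chosen by name out of 21755 protein-coding genes on chromosomes 1 to 19 and X. In each of 12 peak lists every peak was taken whose summit, the position of highest coverage, lay inside a gene or within 10 kb of either end of it. All 8 genes held at least 1 summit, 253 summits in all out of 438517 peaks, and overlapping peaks of different libraries merged into 142 regions out of 231395.

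The lists come from ATAC-seq, in which the transposase Tn5 cuts accessible DNA and short fragments mark sites free of nucleosomes. Male mouse embryonic stem cells (ESCs) grown in serum and LIF were either wild type (WT, line WT26) or lacked both H3K9 methyltransferases Suv39h1 and Suv39h2 (Suv39h dn, line DN57). Each genotype was a single line, so a difference between genotypes cannot be told apart from a difference between the lines. Each line was profiled in duplicate as asynchronous cells, as mitotic cells collected by shake-off after demecolcine, and as mitotic chromosomes purified from lysed demecolcine-treated cells by flow sorting. Per the methods, the transposase was given detergent-extracted nuclei of asynchronous cells, mitotic cells, or chromosomes stained overnight with DNA dyes. A difference between preparations cannot be told apart from a difference in these steps. Nothing in the labels says whether duplicates came from separate cultures, so the spread between them may be technical.

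DNA methylation is laid down on new sites by the enzymes Dnmt3a and Dnmt3b, helped by the inactive relative Dnmt3l. After replication Dnmt1 restores the mark on the daughter strand, and Uhrf1 brings Dnmt1 to hemimethylated DNA. The dioxygenases Tet1, Tet2 and Tet3 oxidise methylcytosine, which leads to its removal. ESCs are known for expressing Tet1, Tet2, Dnmt3b and Dnmt3l.

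The lists held 1746 to 80602 peaks per library. All peaks came with a fold over the local background and a p-value, from which the whole number of fragments under the summit and the local background could be recovered for peaks with −log10 p under 60. The lowest background, a relative measure of depth, was 0.149 and 0.172 fragments in replicate 1 of the asynchronous cells (WT and Suv39h dn) and 0.306 and 0.304 in replicate 2. The Suv39h dn mitotic replicate 1 list was the shortest and held 1 summit in the 8 gene windows. At the genes the summits rested on 3 to 33 fragments, with a median of 7, and the exact Poisson 95% intervals of these end points were 0.619 to 8.77 and 22.7 to 46.3 fragments, which cover counting error only. A list gives no value where no peak passed its threshold (q of 0.05), so an absent peak is not a measured absence of accessibility. Of 8 genes that mark ESCs, 3 to 6 had a promoter peak in the asynchronous libraries, with Sox2, Esrrb and Zfp42 in all 4, Nanog in 2 and Klf4 in 0. Of 5 endoderm genes 1 to 4 were called there, and of 5 neural and mesoderm genes 2 to 3, among them Pax6 in all 4, so promoter peaks did not set ESC markers apart from these lists. Of 6 fibroblast genes, 5 had no promoter peak in any library, and the exception, Col1a2, was called in 2 asynchronous and all 4 chromosome libraries. Promoter peaks of Suv39h1 were listed in 2 WT libraries and 0 Suv39h dn libraries, and those of Suv39h2 in 4 and 2, which does not test the disruption itself.

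Sequences of the strongest promoter region of the Dnmt, Uhrf and Tet families are shown because these sites carry the promoter results. The Dnmt3b region with the most calls, in 3 chromosome libraries, is shown as well and was chosen after its values were seen. The sequences are reference sequence of mm10 within 100 bp of the summit, written 5′ to 3′ along the gene. Those of Dnmt1, Uhrf1 and Tet2 end at most 50 bases past the start site, whereas the Dnmt3b region lies downstream of it, with its summit 955 bp past the reference start and 788 bp past the nearest start. Capitals mark matches to the motifs searched on both strands.
Dnmt1 promoter, chr9:20952929-20953071, minus strand: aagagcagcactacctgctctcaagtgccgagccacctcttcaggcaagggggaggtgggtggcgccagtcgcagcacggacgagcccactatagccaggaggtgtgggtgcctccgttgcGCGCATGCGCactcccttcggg
Uhrf1 promoter, chr17:56303146-56303346, plus strand: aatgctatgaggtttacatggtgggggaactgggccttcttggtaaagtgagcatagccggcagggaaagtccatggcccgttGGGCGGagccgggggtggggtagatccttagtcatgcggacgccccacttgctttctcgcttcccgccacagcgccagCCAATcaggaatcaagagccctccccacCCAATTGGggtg
Tet2 promoter, chr3:133544340-133544428, minus strand: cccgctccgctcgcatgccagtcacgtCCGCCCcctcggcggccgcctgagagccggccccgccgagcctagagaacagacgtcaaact
Dnmt3b promoter, chr2:153650305-153650505, plus strand: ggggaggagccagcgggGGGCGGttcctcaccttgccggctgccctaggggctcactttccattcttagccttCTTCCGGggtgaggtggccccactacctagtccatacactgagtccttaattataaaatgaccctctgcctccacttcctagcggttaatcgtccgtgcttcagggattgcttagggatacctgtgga
The capitals are overlapping NRF1 letters (GCATGCGC) on both strands in Dnmt1, a GC box (GGGCGG) and 3 CCAAT boxes in Uhrf1, a GC box on the minus strand of the gene in Tet2, and a GC box and the ETS letters (CCGGAAG) in Dnmt3b. In Tet2 the YY1 letters (AAGATGGC) were also found 49 bp past the summit. NRF1 letters were held by 3.4% of the 4116 promoter regions called in all 4 asynchronous libraries, GC boxes by 57.5%, CCAAT boxes by 52.8%, ETS letters by 15.9% and YY1 letters by 2.7%. The Esrrb letters TNAAGGTCA were in none of the 39 regions named here, of which 30 had a promoter summit. They were in 0.437% of the 4116 promoter regions. Of the 6311 regions outside promoters called in all 4 asynchronous libraries, 1.71% held them. An E box (CACGTG) lay in 4 of the 39 regions. These are matches of letters, not sites of binding.

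Sequences of 4 intronic regions are shown because each was called in all 4 asynchronous libraries and lay outside every protein-coding promoter. They carry the intronic results and are written in the same way.
Tet1 intron, chr10:62865364-62865564, minus strand: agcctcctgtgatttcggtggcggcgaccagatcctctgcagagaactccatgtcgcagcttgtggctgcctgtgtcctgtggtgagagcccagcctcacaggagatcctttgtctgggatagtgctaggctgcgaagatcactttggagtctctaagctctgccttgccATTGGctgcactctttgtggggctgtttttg
Tet2 intron, near site, chr3:133534225-133534425, minus strand: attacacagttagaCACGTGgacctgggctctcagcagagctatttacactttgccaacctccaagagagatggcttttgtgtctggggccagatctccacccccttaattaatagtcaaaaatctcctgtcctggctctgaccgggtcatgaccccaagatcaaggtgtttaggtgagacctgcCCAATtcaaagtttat
Tet2 intron, far site, chr3:133524662-133524862, minus strand: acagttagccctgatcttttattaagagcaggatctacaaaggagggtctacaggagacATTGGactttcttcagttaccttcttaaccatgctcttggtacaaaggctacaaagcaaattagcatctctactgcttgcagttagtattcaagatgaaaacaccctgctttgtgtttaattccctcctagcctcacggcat
Tet3 intron, chr6:83421936-83422136, minus strand: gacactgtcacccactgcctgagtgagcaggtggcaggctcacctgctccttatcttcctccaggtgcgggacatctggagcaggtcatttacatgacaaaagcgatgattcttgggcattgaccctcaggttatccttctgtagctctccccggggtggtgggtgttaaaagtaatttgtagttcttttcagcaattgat
The capitals mark CCAAT boxes in Tet1 and in both Tet2 sites, and an E box in the near Tet2 site. The near Tet2 sequence also holds both primers of the paper's Esrrb ChIP at Tet2. The paper lists that locus, after an earlier study, as bound by Esrrb in asynchronous and mitotic cells. The lack of the exact Esrrb letters there is thus no sign that Esrrb is absent. The Tet3 window held none of the 7 motifs. The windows within 100 bp of the summit held 5 CpG in Tet1, 2 in the near and 1 in the far Tet2 site, and 3 in Tet3, against a median of 2 over the 6311 regions outside promoters called in all 4 asynchronous libraries. For the shown promoter regions, the full windows within 100 bp of the summit held 19 CpG in Tet2, 11 in Dnmt1, 9 in Uhrf1 and 7 in Dnmt3b. The printed Tet2 and Dnmt1 sequences cover only part of these windows. The median was 13 over the 4116 promoter regions called in all 4 asynchronous libraries and 11 over all 37834 promoter regions. Across all named promoter windows of a gene, the counts ran from 1 to 12 in Dnmt1, 9 to 22 in Uhrf1 and 5 to 25 in Dnmt3b. The shown windows therefore do not stand for whole promoters.

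A promoter was called where a summit lay within 1 kb of the start of a protein-coding transcript. A gene could be called at any of its starts, so genes with several separate starts, such as Dnmt3a and Tet1, had more chances. The shares of all genes given beside the counts were not matched for this. In asynchronous cells 4 and 6 of the 8 genes had a promoter peak in WT replicates 1 and 2, beside 30.3% and 50.2% of all protein-coding genes. In asynchronous Suv39h dn cells the counts were 3 and 6, beside 29.9% and 53.7%. In mitotic cells 1 and 1 genes were called in WT, beside 15.6% and 23.9%, and 0 and 4 in Suv39h dn, beside 3.51% and 28.3%. On sorted chromosomes 4 and 7 genes were called in WT, beside 35.1% and 48.7%, and 6 and 6 in Suv39h dn, beside 40.3% and 40%. The means were 4.75 ± 1.5 genes in asynchronous cells, 1.5 ± 1.73 in mitotic cells and 5.75 ± 1.26 on chromosomes (SD, n = 4). The asynchronous and chromosome counts overlapped, and the mitotic counts lay at or below 4.

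**Figure D1:**
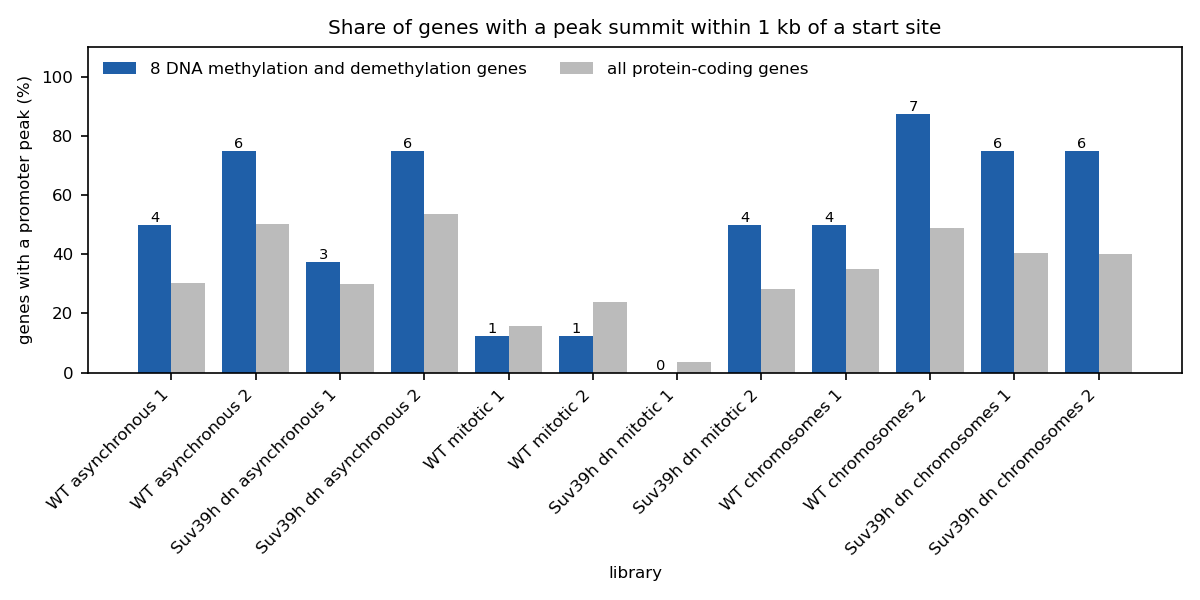
Share of genes with a promoter peak (vertical axis, percent) in each of the 12 libraries, for the 8 DNA methylation and demethylation genes (blue, with their count above the bar) and for all protein-coding genes (grey). The 8 genes stand above the grey bar in all asynchronous and chromosome libraries and below it in 3 of 4 mitotic libraries.

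The genes differed in how regularly their promoters were listed. Tet2 and Uhrf1 were called in all 4 asynchronous libraries, as were 21.4% of all genes. No gene of the 8 was called in all 4 mitotic libraries, against 2.07% of all genes. Dnmt3b and Tet1 were called in all 4 chromosome libraries, against 19.6%. Over all 12 libraries Uhrf1 was called in 9, Dnmt1, Tet1 and Tet2 in 8, Dnmt3l in 5, Dnmt3b in 4, and Dnmt3a and Tet3 in 3.

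The maintenance genes were listed in all 3 preparations. At Dnmt1 (chr9:20907209-20959888, minus strand), the enzyme that copies methylation, a region at its reference start (chr9:20952800-20953085) was called in 8 libraries, and chromosome WT replicate 2 had a further promoter peak beside it. Its fold over the local background was 5.05 and 4.76 in asynchronous WT replicates 1 and 2 and 7.73 in Suv39h dn replicate 2. In mitotic cells it was 6.63 in WT replicate 2 and 9.56 in Suv39h dn replicate 2. On chromosomes it was 5.97 in WT replicate 2 and 4.32 and 4.49 in Suv39h dn replicates 1 and 2. These peaks rested on 5 to 12 fragments, and the highest fold was from mitotic cells. The summit lay 8 bp past the start site. A start 6.91 kb upstream was called in 2 chromosome libraries only, with a fold of 5.41 in WT replicate 2 and 5.63 in Suv39h dn replicate 2.

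Uhrf1 (chr17:56303321-56323486, plus strand), which recognises hemimethylated DNA, has annotated starts about 1 kb apart and was called at both. The region at the second group of starts (chr17:56304081-56304339) had folds of 7.19, 7.82, 6.11 and 8.75 in the asynchronous libraries (WT 1, WT 2, Suv39h dn 1, Suv39h dn 2) and of 6.39 and 6.69 in mitotic WT replicate 1 and Suv39h dn replicate 2. It was in no chromosome list. On chromosomes the calls fell elsewhere: 4.55 and 5.25 in WT replicate 2 and Suv39h dn replicate 1 at chr17:56303863-56304004, and 3.8 in Suv39h dn replicate 2 at the reference start. The region at the reference start (chr17:56303193-56303529) reached 11.2 in asynchronous WT replicate 2. All 4 asynchronous libraries, 2 mitotic and 3 chromosome libraries thus had a Uhrf1 promoter peak, but no region at its starts held both chromosome and mitotic calls.

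The flank of Uhrf1 also held the promoter of Kdm4b, a histone demethylase gene downstream of it. That region (chr17:56325554-56326062) was called in 8 libraries with folds of 4.96 to 17.6, and on chromosomes only in Suv39h dn replicate 1.

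**Figure D2:**
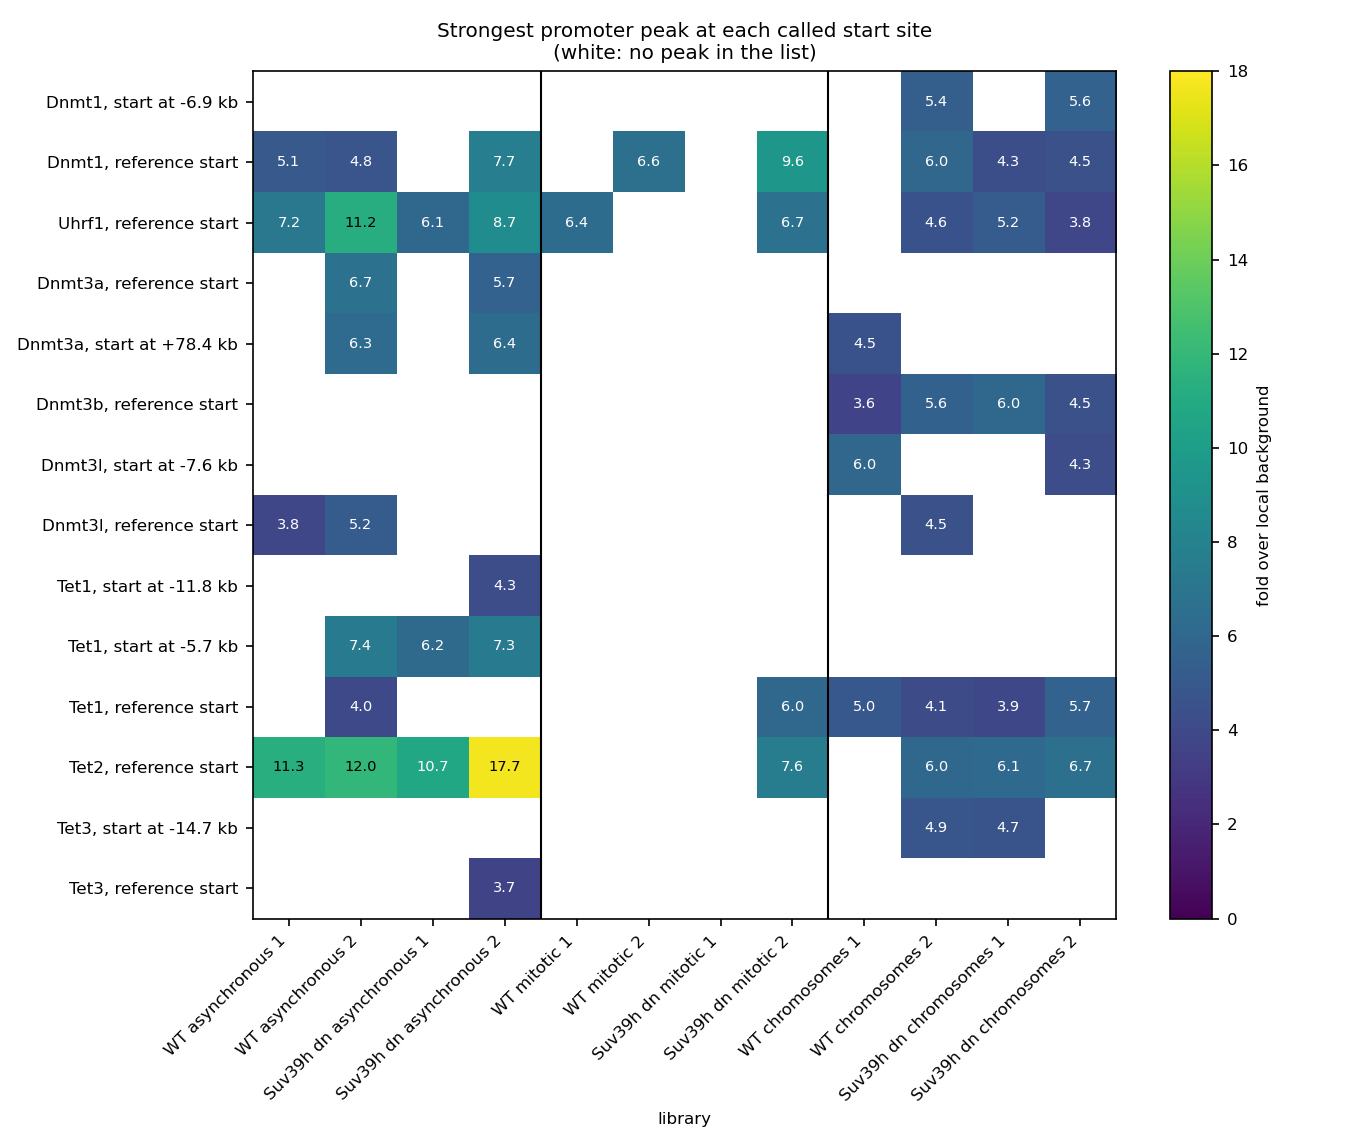
Fold over the local background of the strongest promoter peak (colour and printed value) at each start site with a call (rows, with its distance from the reference start) in the 12 libraries (columns). White means that no peak was listed, and vertical lines separate the preparations. Tet2 shows the highest folds, 10.7 to 17.7 in asynchronous cells, and Dnmt3b shows values in the chromosome libraries only.

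Among the de novo methyltransferase genes, Dnmt3b was called on chromosomes alone. At Dnmt3b (chr2:153649450-153687730, plus strand) no asynchronous and no mitotic library listed a promoter peak, whereas all 4 chromosome libraries did. This count depended on the starts used. With the starts of all annotated transcripts, noncoding ones included, 2 of 4 asynchronous libraries were counted as called. Their peak (chr2:153668865-153668995) lay in an intron, 19.4 kb past the reference start and 484 bp from a noncoding start. At the protein-coding starts no asynchronous library was called even within 2 kb. The strongest chromosome promoter peaks had folds of 3.6 and 5.61 in WT replicates 1 and 2 and 6.04 and 4.48 in Suv39h dn replicates 1 and 2. They rested on 4, 8, 7 and 6 fragments. With protein-coding starts the groups did not overlap in presence, a pattern that 2.08% of all genes showed between chromosomes and asynchronous cells, 7.3% between chromosomes and mitotic cells, and 1.88% against both. In an exact two-sided permutation test of presence the p was 0.0286 for each contrast, the smallest that 4 libraries against 4 can give. After Benjamini-Hochberg adjustment over 21755 genes the adjusted p was 0.62 against asynchronous and 0.383 against mitotic cells, so neither difference passed.

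The Dnmt3b calls were scattered over 4 regions between 533 bp before and 955 bp after the reference start. WT replicate 1 was called at chr2:153648911-153648973. WT replicate 2 was called at chr2:153649188-153649302, chr2:153649782-153649855 and chr2:153650334-153650504. Suv39h dn replicate 1 was called at the last of these alone, and Suv39h dn replicate 2 at that region and at chr2:153649188-153649302. No Dnmt3b promoter peak had a q-value at or under 1e-05, and within 500 bp of the start only 2 of the 4 chromosome libraries were called.

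Dnmt3a (chr12:3806007-3914443, plus strand) has a long form and a short form, known as Dnmt3a2, that starts inside the gene and predominates in ESCs. The starts of the long form were called only in replicate 2 of the asynchronous cells, at a fold of 6.71 in WT and 5.68 in Suv39h dn. The start of RefSeq variant 2, the short form, 84.7 kb downstream, was called in 0 of 12 libraries. A start 78.4 kb downstream of the reference start was called in the same asynchronous libraries at 6.3 and 6.38 (chr12:3885201-3885314) and in chromosome WT replicate 1 at 4.53. The asynchronous calls of this gene therefore came only from the lists whose lowest background was near 0.3 fragments. The part of depth in this difference was not tested.

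Dnmt3l (chr10:78041947-78063622, plus strand), the catalytically inactive cofactor, was called at its reference start (chr10:78049830-78049977) in WT libraries alone: 3.83 and 5.21 in asynchronous replicates 1 and 2 and 4.49 on chromosomes in replicate 2. Counting all its starts it was called in 4 WT libraries and 1 Suv39h dn library, the widest split by genotype among the 8 genes. The exact permutation p of that difference was 0.167 and the adjusted p was 1. A start 7.55 kb upstream was called in 2 chromosome libraries at 5.95 and 4.28, 357 and 492 bp from the start of the neighbouring gene Aire, so the gene to which those peaks belong cannot be told apart. Downstream of Dnmt3l the region chr10:78067376-78067529 was called in all 4 asynchronous libraries with folds of 4.25, 7.33, 6.36 and 10.6 (WT 1, WT 2, Suv39h dn 1, Suv39h dn 2). It was also the single summit of Suv39h dn mitotic replicate 1, at 5.42. The strongest summit of this region lay 1873 bp from the start of the neighbouring gene Icosl and 12094 bp from the nearest Dnmt3l start. The gene to which it belongs cannot be told from these lists.

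**Figure D3:**
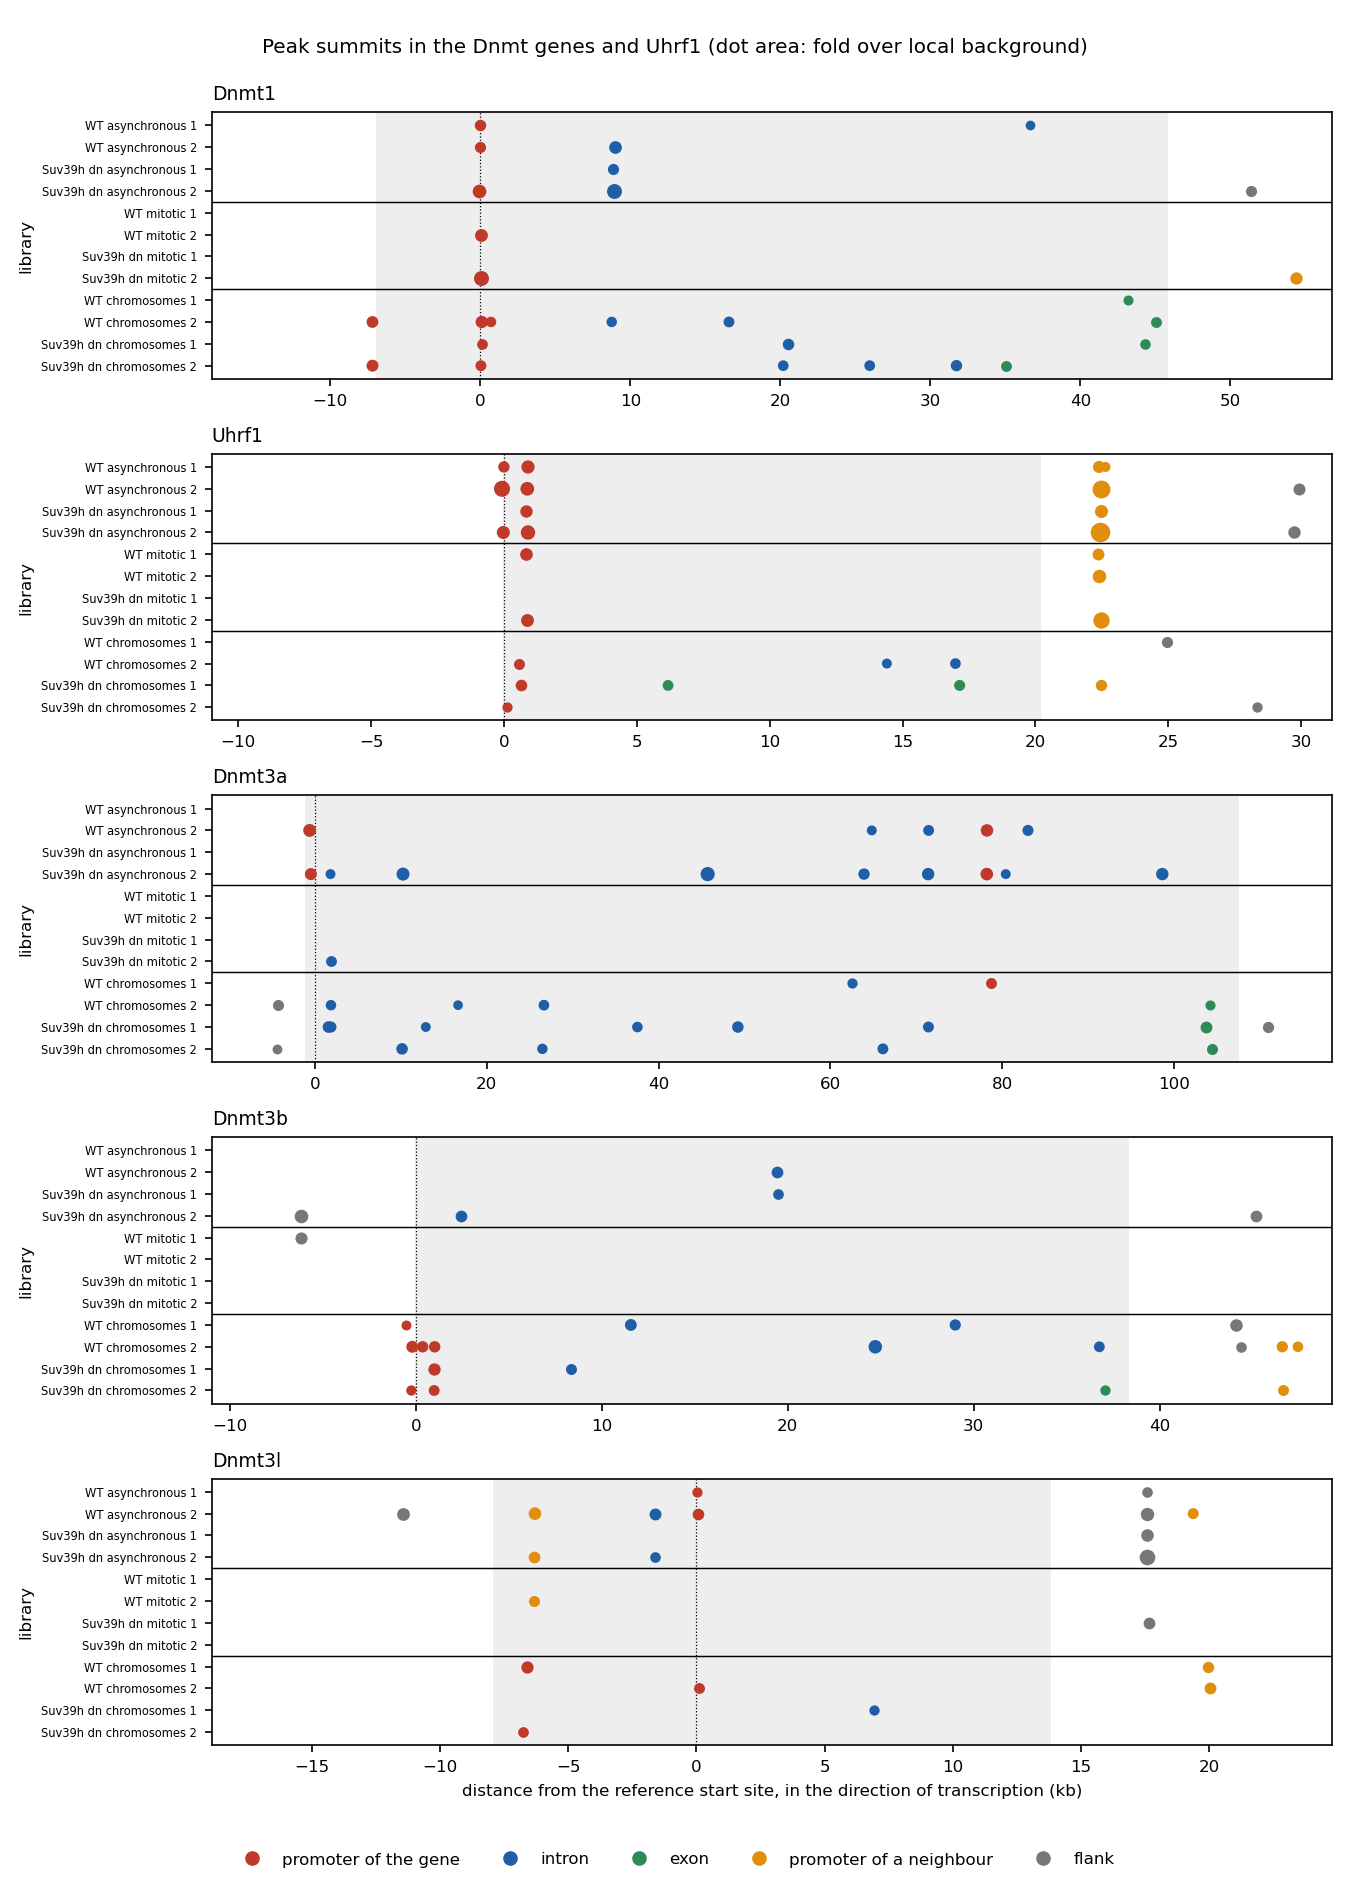
Peak summits in the Dnmt genes and Uhrf1 by distance from the reference start in the direction of transcription (horizontal axis, kb) and by library (vertical axis). Dot area is the fold over the local background, colour the location, and grey shading the gene. Chromosome libraries show Dnmt3b promoter dots that the other libraries lack, and Dnmt1 and Uhrf1 show promoter dots in all 3 preparations.

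Among the Tet genes, Tet2 had the strongest promoter. At Tet2 (chr3:133463679-133545139, minus strand) the region at the reference start (chr3:133544201-133544462) had folds of 11.3 and 12 in asynchronous WT replicates 1 and 2 and 10.7 and 17.7 in Suv39h dn replicates 1 and 2. It was 7.61 in mitotic Suv39h dn replicate 2 and unlisted in the other 3 mitotic libraries. On chromosomes it was 6.03 in WT replicate 2 and 6.13 and 6.66 in Suv39h dn. All asynchronous values were above all mitotic and chromosome values, although a fold is set by each library's own background and depth. It was the only promoter of the 8 genes with a chromosome peak at a q-value at or under 1e-05. Over all 12 libraries it was listed in 3 WT and 5 Suv39h dn libraries, with an exact permutation p of 0.5 and an adjusted p of 1.

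Tet1 (chr10:62804570-62908996, minus strand), the main Tet enzyme of ESCs together with Tet2, was called at different starts in different preparations. A start 5.66 kb upstream of the reference start had peaks in 3 of 4 asynchronous libraries and in none of the other 8, with folds of 7.37 in WT replicate 2 and 6.19 and 7.32 in Suv39h dn replicates 1 and 2. The reference start was called in all 4 chromosome libraries, with folds of 4.96 and 4.15 in WT replicates 1 and 2 and 3.93 and 5.67 in Suv39h dn replicates 1 and 2. In cells it was called at 3.98 in asynchronous WT replicate 2 and at 6.05 in mitotic Suv39h dn replicate 2. These calls were spread over 6 regions, and no chromosome peak among them had a q-value at or under 1e-05. The asynchronous and chromosome counts for the whole gene, 3 and 4 libraries, hide this split, and a test of single starts was not made.

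Tet3 (chr6:83362373-83459084, minus strand), the Tet gene of oocytes and of differentiated cells, was called at its reference start only in asynchronous Suv39h dn replicate 2, with a fold of 3.69 on 4 fragments. A start 14.7 kb upstream was called on chromosomes in WT replicate 2 at 4.85 and in Suv39h dn replicate 1 at 4.65.

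**Figure D4:**
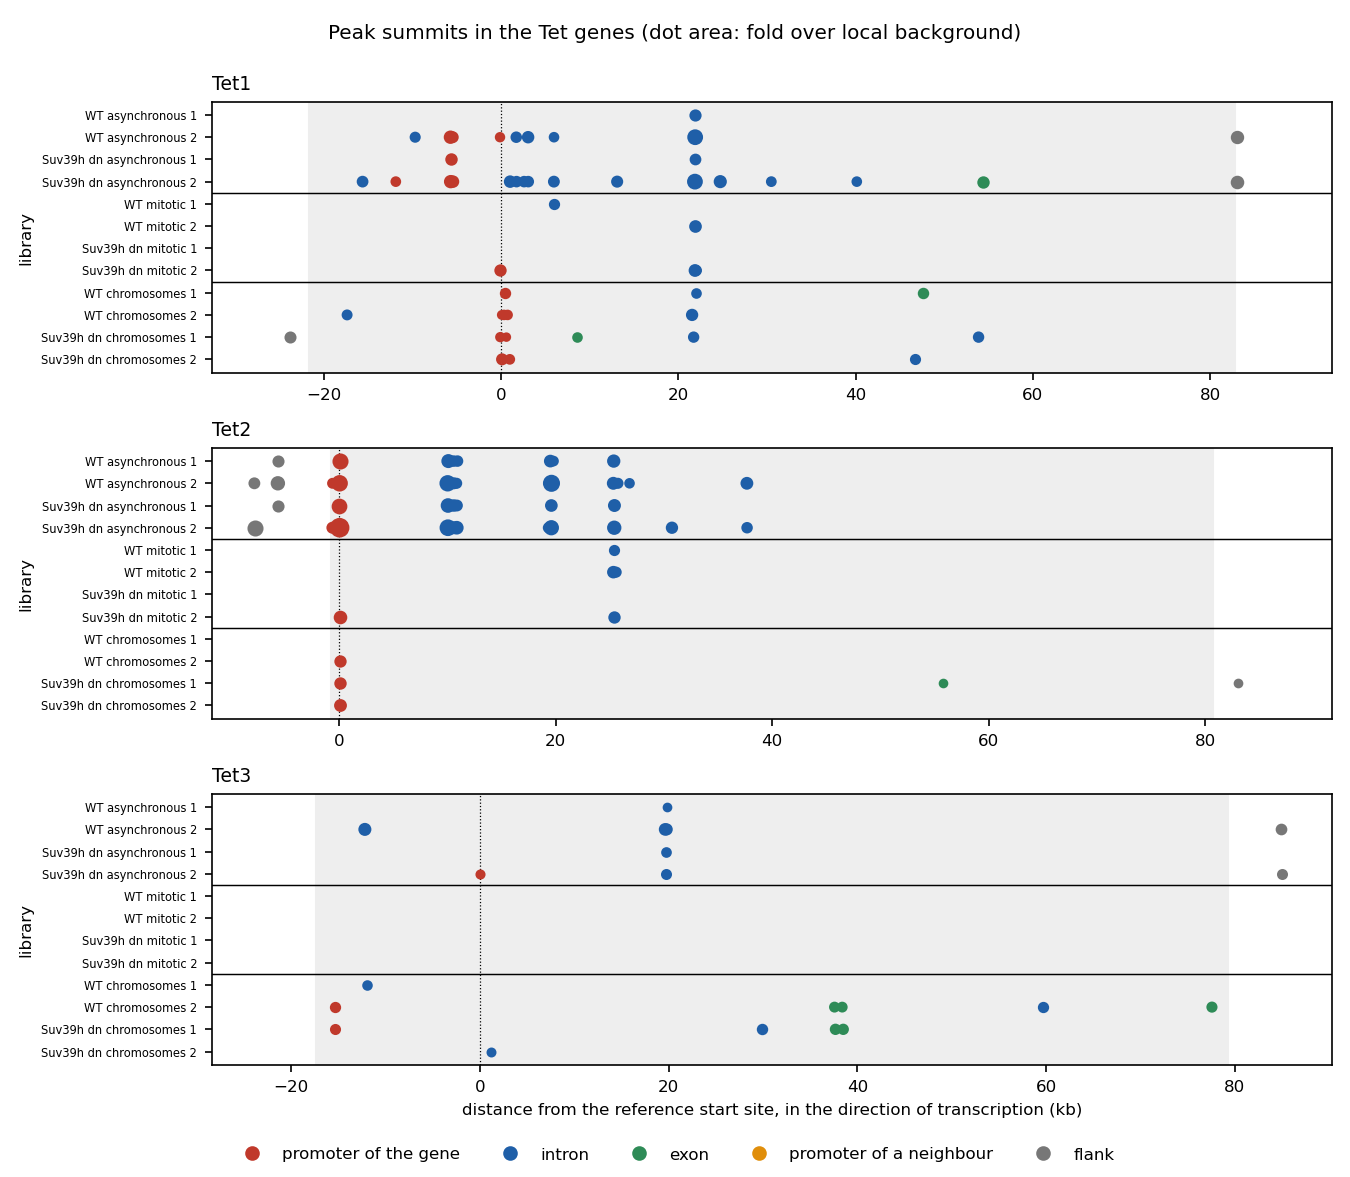
Peak summits in Tet1, Tet2 and Tet3 by distance from the reference start in the direction of transcription (horizontal axis, kb) and by library (vertical axis). Dot area is the fold over the local background, colour the location, and grey shading the gene. Tet2 shows columns of intronic dots between 10.1 and 25.4 kb in all asynchronous libraries, of which the mitotic lists hold only the last and the chromosome lists none.

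The introns of the Tet genes held the most regular peaks outside promoters. In Tet2, 5 intronic regions were called in all 4 asynchronous libraries. The region 10.1 kb past the start (chr3:133534165-133534420, the near site above) had folds of 8.2, 11.8, 9.06 and 12.3 in WT replicates 1 and 2 and Suv39h dn replicates 1 and 2, on 12, 24, 12 and 26 fragments. The region at 19.6 kb (chr3:133524510-133525010, the far site) had 6.54, 12.9, 6.45 and 9.99. Beside the near site lay chr3:133533737-133533868, with folds of 5.14 to 6.85, and chr3:133533396-133533555, with 4.7 to 7.74. None of these 4 regions was in any mitotic or chromosome list. By fold the genotypes overlapped at the near and far sites, whereas at the other two both Suv39h dn values lay above both WT values, 6.25 and 6.85 against 5.14 and 5.66 and 5.53 and 7.74 against 5.13 and 4.7. By fragments the genotypes overlapped at all 4, and in each genotype replicate 2 had more fragments than replicate 1. These differences between genotypes were not tested, as 2 libraries per genotype allow no test within 1 preparation. How often such folds separate by genotype over all regions was not counted.

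The remaining intronic region of Tet2, at 25.4 kb (chr3:133518748-133519096), was the one listed in mitotic cells. Its folds were 7.25, 6.78, 6.8 and 8.65 in asynchronous cells, 4.78 and 6.35 in mitotic WT replicates 1 and 2, and 6.1 in mitotic Suv39h dn replicate 2. It was in no chromosome list. It was thus called in 7 libraries, whereas its neighbour at 19.6 kb, with up to 22 fragments in asynchronous cells, was called in 4.

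Tet1 had 1 such region, 21.9 kb past the reference start and 160 bp from the start of a noncoding Tet1 transcript (chr10:62865261-62865529). Its folds were 5.9, 10.8, 5.36 and 10.8 in asynchronous cells, 6.46 in mitotic WT replicate 2, 6.62 in mitotic Suv39h dn replicate 2 and 4.21 on chromosomes in WT replicate 1. Chromosome WT replicate 2 and Suv39h dn replicate 1 had summits close by that did not touch the region, at 6.03 and 4.96. In Tet3 a weak region at 19.6 kb (chr6:83421818-83422070) was called in the asynchronous libraries alone, with folds of 3.34, 6.46, 4.27 and 4.6 on 3 to 8 fragments.

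**Figure D5:**
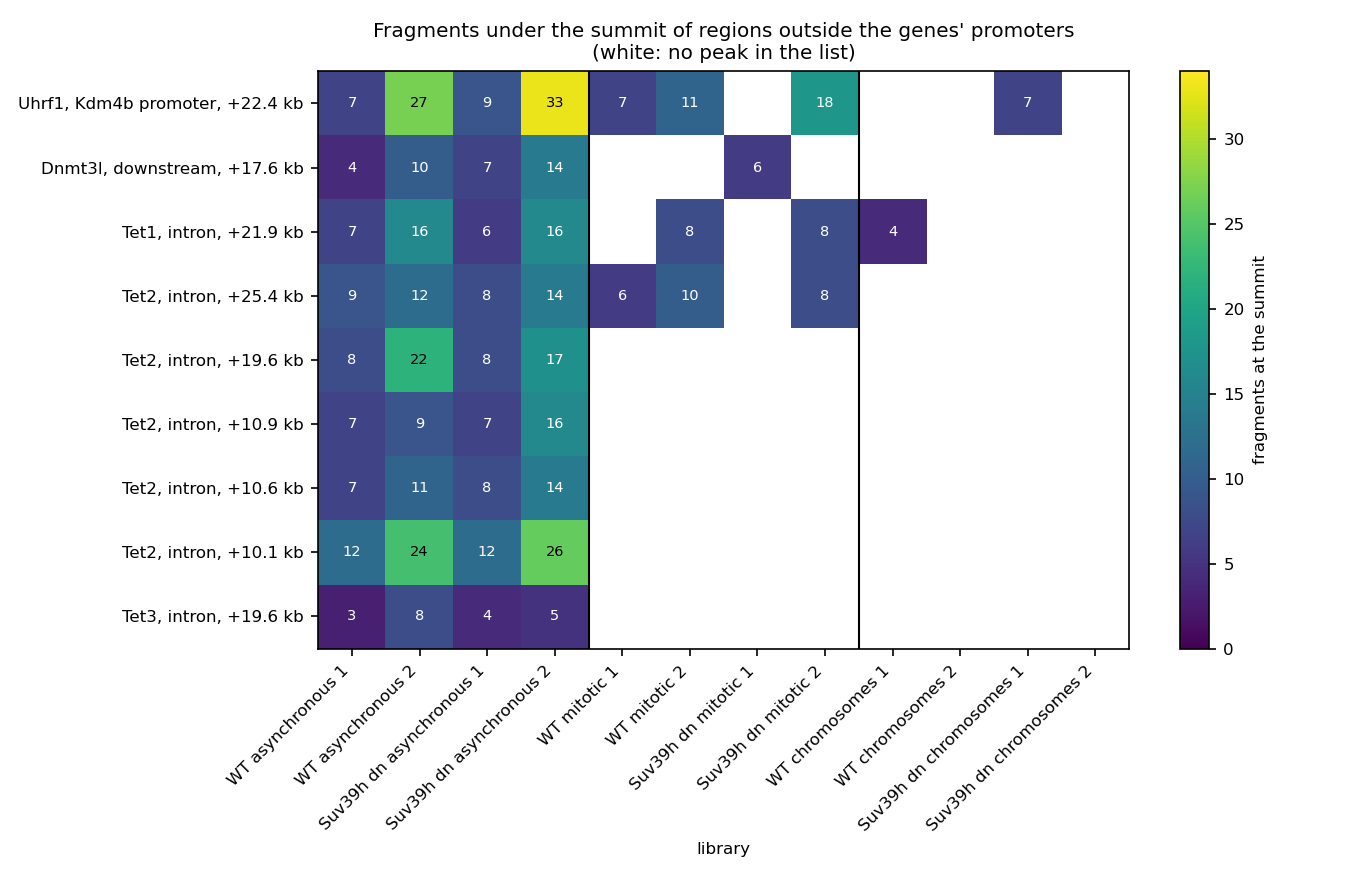
Fragments under the summit (colour and printed value) at the 9 named regions outside the promoters of the 8 genes (rows, with their distance from the reference start) in the 12 libraries (columns). White means that no peak was listed. The Tet2 regions at 10.1 to 19.6 kb and the Tet3 region are filled in the asynchronous libraries only, and the Tet1 region and the Tet2 region at 25.4 kb reach into the mitotic libraries.

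Of the 8 regions outside promoters that all 4 asynchronous lists held, 5 were in no mitotic and no chromosome list, which was so for 30.2% of 6311 such regions of the whole series. At least 1 mitotic list held 3 of the 8, against 66.6%, and at least 1 chromosome list held 1, against 18.9%. The 3 regions at promoters that all 4 asynchronous lists held were the Tet2 and Uhrf1 starts and the Kdm4b promoter. None of the 3 was absent from all other lists, against 6.05% of 4116 promoter regions. All 3 were in a mitotic list, against 88.9%, and 2 were in a chromosome list, against 65.4%. With 8 and 3 regions these shares are a description of the genes. At a q-value at or under 1e-05 the Tet2 sites at 10.1 and 19.6 kb were still called in all 4 asynchronous libraries. Beside the near site, chr3:133533737-133533868 was called in 3 and chr3:133533396-133533555 in 1. The Tet3 region was called in 1.

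Exonic summits were concentrated on sorted chromosomes. They made up 18 of 103 chromosome summits at the 8 genes (17.5%), 1 of 128 asynchronous summits (0.781%) and 0 of 22 mitotic summits. Over all protein-coding gene windows the exonic share was 8.86% on chromosomes, 3.71% in asynchronous and 2.25% in mitotic cells, so the direction was that of all genes. These 18 summits lay in 7 genes, 13 in coding sequence and 5 in a last exon, with folds of 3.29 to 5.49 on 3 to 9 fragments. Dnmt1 was called once in every chromosome library, each time in a different coding exon, namely exons 35 and 38 in WT and, in Suv39h dn, exons 37 and 26. The last exon of Dnmt3a, exon 23, was called in 3 chromosome libraries at separate positions. Exon 4 of Tet3 was called at a pair of positions in WT replicate 2 (4.43 and 4.51) and in Suv39h dn replicate 1 (4.92 and 4.95). The Dnmt3l gene had no exonic summit.

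The chromosome peaks of the genes had lower folds than those of cells, as did the chromosome peaks of the whole series. Their median fold was 4.53, against 5.86 in asynchronous and 6.07 in mitotic cells, and their highest was 7.53, against 17.7 and 11.7. Over all peaks the median fold by library was 4.21 to 4.84 on chromosomes, 5.12 to 6.13 in asynchronous and 5.55 to 5.7 in mitotic cells. Of 85 regions called on chromosomes 70 were in 1 library (82.4%), against 73.3% of all chromosome regions of the series. In asynchronous cells 36 of 67 regions were in 1 library (53.7%, against 51.6%), and in mitotic cells 8 of 13 (61.5%, against 62.9%). In asynchronous cells 11 of 67 regions were in all 4 libraries, against 10.5% of all asynchronous regions of the series. On chromosomes 0 of 85 were, against 4.2%, and in mitotic cells 0 of 13, against 3.57%. At a q-value at or under 1e-05, 5 of the 8 genes kept a promoter peak in at least 1 asynchronous library, beside 47.8% of all genes. In mitotic cells 3 did, beside 18.6%, and on chromosomes only Tet2 did, beside 25.1%.

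Counts of summits in the gene windows varied with the length of the lists. They were 18 and 43 in asynchronous WT, 15 and 52 in Suv39h dn, 5 and 6 in mitotic WT, 1 and 10 in Suv39h dn, 14 and 35 on WT chromosomes and 31 and 23 on Suv39h dn chromosomes. The means were 32 ± 18.3, 5.5 ± 3.7 and 25.8 ± 9.29 (SD, n = 4) in asynchronous cells, mitotic cells and chromosomes. Per 10000 peaks of a list the range was 5.98 to 8.06, 4.5 to 7.7 and 3.02 to 5.22. Per length, the windows held 1.65 to 2.17 times the summits of all protein-coding gene windows in asynchronous cells, 1.14 to 1.82 times in mitotic cells and 0.917 to 1.56 times on chromosomes. Tet1 and Tet2 held 50 and 48 summits and Tet3 and Dnmt3l 20 each.

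The question of the genotype comparison was whether loss of the Suv39h enzymes changed accessibility at these genes. Averaged over the 3 preparations, Suv39h dn libraries listed 0.333 more promoters and 1.83 more summits than WT libraries, both less than the spread between duplicates (1.78 promoters and 14.7 summits). Neither difference had a stable direction: leaving out 1 library moved them to between -0.333 and 1 promoters and between -4.33 and 8 summits. No gene of the 8 passed the exact two-sided permutation test of promoter presence, in which genotype labels were exchanged within preparations and p-values were adjusted by Benjamini-Hochberg. Tet1 and Tet2 were called in 3 WT and 5 Suv39h dn libraries, Uhrf1 in 4 and 5, Tet3 in 1 and 2, Dnmt3a in 2 and 1, and Dnmt1 and Dnmt3b equally. Their unadjusted p was 0.5 for Tet1 and Tet2 and 1 for the other five, Dnmt3l being given above. Over all 21755 genes 0 passed (0%) and 1 had an unadjusted p under 0.05 (0.0046%). The smallest p that the arrangements can give is 0.00926, at which 4029 genes would be needed to pass the adjustment, so the test could not have called a few genes. No region of the 142 was called in both libraries of a genotype and neither of the other in 2 preparations. In 1 preparation 3 of the 142 regions were called so in WT, against 2.32% of all 231395 regions, and 0 in Suv39h dn, against 2.43%.

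The contrasts between preparations could hardly have passed, since 12432 genes would be needed at the smallest p of 0.0286. For that reason their outcome says little: 0% of all genes had an adjusted p under 0.05 for mitotic against asynchronous cells, 0% for chromosomes against asynchronous cells and 0% for chromosomes against mitotic cells. At an unadjusted p under 0.05 there were 432, 1003 and 1624 genes, among which Dnmt3b was in the last 2 sets and no other gene of the 8 was in any. No gene of the 8 was called in all 4 asynchronous and 0 mitotic libraries, against 1.99% of all genes, or in all 4 asynchronous and 0 chromosome libraries, against 2.53%.

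The wider pathway was read from 33 further genes, among them readers of methylated DNA, base excision repair enzymes and methyl donor enzymes. Promoters were called in 16 to 27 of these 33 genes in asynchronous libraries, beside 29.9% to 53.7% of all protein-coding genes. In mitotic libraries the range was 2 to 15, beside 3.51% to 28.3%. On chromosomes it was 11 to 23, beside 35.1% to 48.7%. All 4 asynchronous libraries held 12 of the 33, against 21.4% of all genes, and all 4 chromosome libraries 6, against 19.6%. All 4 mitotic libraries held 1, against 2.07% of all genes. It was Gadd45a, a stress gene linked to demethylation. Kdm1b, a histone demethylase needed for methylation in oocytes, was called in 11 libraries. Gadd45b, a relative of Gadd45a, was called in 4 asynchronous, 3 mitotic and 0 chromosome libraries. Zbtb4, a reader of methylated DNA, was called in 3 chromosome libraries and in 0 cell libraries. None of the 33 passed the genotype test after adjustment, and 0 had an unadjusted p under 0.05.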

How the data were processed

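ATAC-seq peak lists of 12 libraries (3 preparations, 2 genotypes, 2 libraries each) were analysed. Per the labels and methods, the authors trimmed reads with Trim Galore 0.4.4, aligned them to mm10 with Bowtie2 2.2.9, removed duplicates, merged technical runs, shifted reads, kept fragments under 100 bp, called peaks per library with MACS2 and removed blacklisted regions. The deposited lists give the fold (a ratio over local background), −log10 p-value, −log10 q-value and a score for each peak. No counts were used here, so the edgeR and limma test of the study was not repeated. Fragments at summits were recovered from fold and p-value for 100% of peaks with −log10 p under 60 (tolerance 0.001). GENCODE vM21 gave the genes. The reference start of each gene was that of a transcript chosen by hand beside a RefSeq start, and served for distances and labels only. Overlapping peaks were merged. Named regions were those with a promoter summit, those in at least 6 libraries, or those in all 4 libraries of 1 preparation and at most 1 other. Presence of promoter peaks was tested with exact permutation tests, Benjamini-Hochberg adjusted over all genes, in Python 3.11.15 with scipy 1.17.1, and tested on simulated data. Members and lists were chosen with earlier results of these data known.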

Additional observations from a re-analysis of the deposited data

Results flagged for a closer look

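Among the 4 chromosome libraries, WT replicate 1 stood apart from the others in the number of summits at the 8 genes per 10000 peaks of its list, 3.02 against 5.12 to 5.22. Its gap to the nearest library, divided by the range, was above Dixon's 95% critical value for 4 samples. Of 24 quantities tested this was the only one, and chance flags about 1 in 20.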

How the results depend on the processing

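Of 112 values recomputed under the alternatives, 6 moved by more than the spread between replicates and 106 did not. The 106 include counts from the genotype test, which have no such spread and stayed at 0. Their stability says little, since that test could not have called a few genes. The 106 also include every value with 1 library left out. Leaving out 1 library cannot move a mean of 4 libraries, or the genotype difference, by the whole spread. Those values therefore say nothing about stability. The Suv39h dn minus WT difference, smaller than the spread between replicates, changed sign in 4 of 18 alternatives for promoters and in 3 of 17 for summits. Without asynchronous WT replicate 1, asynchronous Suv39h dn replicate 2 or chromosome WT replicate 1 the summit difference was -2.33, -4.33 and -1.67. The promoter difference was -0.167 without the last 2 of these or with starts of all annotated transcripts, and -0.333 without mitotic Suv39h dn replicate 2. At a q-value at or under 1e-05 the mean number of promoters called was 3 in asynchronous cells and 0.25 on chromosomes, and the mean number of summits on chromosomes was 0.5. With lists shortened by p to the shortest of a preparation the asynchronous promoters were 3 and the mitotic summits 0.75. With promoters within 500 bp the chromosome promoters were 4.25. Values not counted as moved could still shift widely where the spread was large. Mean asynchronous summits went from 32 to 16 at a q-value at or under 1e-05 and to 14.5 in shortened lists, with a spread of 18.3. Mean mitotic promoters went from 1.5 to 0.25 in shortened lists, with a spread of 1.73. Under alternatives chosen after seeing the data, Dnmt3b was called in 0 chromosome libraries at a q-value at or under 1e-05. Within 500 bp of a start 2 chromosome libraries were called. With starts of all annotated transcripts 2 asynchronous libraries were called, at the intronic peak 19.4 kb past the reference start. The 5 Tet2 and Tet3 intronic regions called in asynchronous cells alone became 2 at a q-value at or under 1e-05 and 2 in shortened lists. The causes were not tested. The genotype test passed 0 genes under every alternative run, with 0 to 87 genes at an unadjusted p under 0.05.

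Replicate numbers were not taken to pair the samples in the main test. Across genes, deviations of same-numbered WT and Suv39h dn libraries correlated at 0.283 in asynchronous cells, 0.15 in mitotic cells and 0.0253 on chromosomes. Same-numbered asynchronous libraries were also alike in lowest background, as given above. Whether same-numbered libraries shared a batch was not tested. With the replicate number as a block 0 genes passed, and 0 had an unadjusted p under 0.05, where the smallest p of 64 arrangements is 0.0313. Depth limits the results: most peaks rest on fewer than 10 fragments, and the lists give no value where no peak was called.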
